A study of Mus musculus with 14 samples.

Results

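RNA levels of Rheb, its paralog Rhebl1, the TSC complex genes Tsc1, Tsc2 and Tbc1d7, and the mTORC1 core genes Mtor, Rptor and Mlst8 are described here in microglia, the resident macrophages of the brain. These 8 genes were chosen by name from the 41739 genes of the table, through the mouse symbol of each Ensembl ID, a rule that uses no measured value. All mice carried floxed Rheb alleles (genotype Rheb F/F), and this genotype alone is called WT. The KO groups also carried Tmem119-cre ER, an inducible Cre recombinase tied to Tmem119, a gene that microglia express, and no WT mouse carried Cre. Mice 8 weeks of age that had been given tamoxifen were injected intraperitoneally each day for 4 days with PBS or with LPS, the bacterial endotoxin, at 1.0 mg/kg, and cells were then taken from the brain by MACS, a magnetic bead method. Total RNA was sequenced in 3 libraries each of WT and KO under PBS, and in 4 libraries each of WT and KO under LPS. The 6 PBS libraries are named by their labels (WT904, WT913, WT914, KO911, KO912, KO915) and the LPS libraries by replicate number. Nothing in the labels states that each library is a separate animal, and the p-values below reflect differences among libraries that may be technical. The labels do not name the floxed exons.

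Rheb is a small GTPase that, in its GTP-bound form at the lysosome, switches on mTORC1, the complex in which the kinase mTOR works together with the substrate-binding subunit Raptor (Rptor) and with mLST8. The TSC complex holds Rheb in check: tuberin (Tsc2) is the subunit that stimulates GTP hydrolysis by Rheb, hamartin (Tsc1) stabilises tuberin, and Tbc1d7 binds hamartin. Active mTORC1 promotes protein, lipid and nucleotide synthesis and restrains autophagy and lysosome formation, and in microglia it is known as a regulator of metabolism and of inflammatory activation. Rhebl1 is a close relative of Rheb that can also activate mTORC1.

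Rheb and Rhebl1 had to be told apart for the levels of each to be read, so the first 60 coding bases of both are shown, from the GENCODE M21 transcripts, 5′ to 3′, with the 20 positions at which they differ in capitals.
Rheb: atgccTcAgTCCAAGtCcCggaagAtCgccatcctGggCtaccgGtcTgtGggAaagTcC
Rhebl1: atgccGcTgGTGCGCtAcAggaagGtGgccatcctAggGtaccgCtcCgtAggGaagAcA
The coding sequences are 555 and 567 bases long and were identical at 316 of 554 aligned positions (57.0%). The longest run of bases that any annotated Rheb transcript shared with any Rhebl1 transcript was 14, and neither gene had a near copy (at least 95% identity over at least 150 bases) among the other annotated transcripts.

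Values are TPM, which are reads per exon length scaled to the same total, 1000000, in every library. The reads behind them, recovered from the table, numbered 8.00 M (M, mega) in KO LPS replicate 4 to 32.3 M in WT LPS replicate 1. The 10 microglial markers examined were present in all libraries, with summed levels of 18761 to 40244 TPM, and RNA of other cells was also present, with neutrophil markers at 4973 to 24288 TPM and choroid plexus and ependymal markers at 2337 to 25976 TPM. WT914 and KO LPS replicate 3 stood apart by pituitary hormone transcripts, whose 7 markers summed to 88696 and 32056 TPM and of which Lhb was at 0 everywhere. The PBS and LPS libraries also differed in sex-linked transcripts, although the design text names female mice. The Y-linked gene Ddx3y was read at 111 to 146 TPM under PBS and at most 0.270 TPM under LPS, while Xist, the RNA of X inactivation, was read at 0.147 TPM or less under PBS and at 255 TPM or more under LPS. The RNA Gm23935 held 0.0566% to 0.248% of all TPM in the PBS libraries and 4.04% to 15.4% in the LPS libraries. Treatment therefore cannot be told apart from sex or from this RNA. KO and WT were compared within each treatment, but under LPS Xist was also higher in KO (354 to 574 TPM) than in WT libraries (255 to 329 TPM), with a log2 difference of 0.66 (adjusted p 0.0422 by limma), and its part in the KO differences was not tested. Bulk RNA cannot tell fewer cells of a type from less RNA per cell.

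Rheb RNA was lower in KO than in WT libraries under PBS but was far from absent. In WT PBS libraries WT904, WT913 and WT914 it stood at 29.7, 32.2 and 34.5 TPM, and in KO PBS libraries KO911, KO912 and KO915 at 16.6, 19.0 and 19.1 TPM. The 3 KO libraries were all lower than the 3 WT libraries, a separation found in 10.9% of all tested genes, and each still held 51.5% to 59.3% of the WT mean. The group means were 32.1 ± 2.39 TPM (SD, n = 3) in WT and 18.2 ± 1.43 TPM (SD, n = 3) in KO, so the KO mean was 56.7% of the WT mean. The difference on the log2(TPM + 1) scale was -0.79 (SE 0.124, 95% interval -1.05 to -0.52), with an adjusted p of 0.0163 by limma with Benjamini-Hochberg adjustment over 18724 genes. A gene with an adjusted p under 0.05 is called here, and Rheb was the only called gene of the 8, where 1.02% of all tested genes were called and 0.224% were called lower. Rheb stood at rank 29 of 18724 by p. An exact two-sided permutation test within PBS gave p = 0.1, the smallest that 3 against 3 libraries allow. The call was lost (adjusted p 0.0612 to 0.0960 by limma) when KO911 or KO912 or WT913 or WT914 was left out, while the fold change stayed between -0.72 and -0.84 over all such fits. Summed microglial markers overlapped between the genotypes under PBS (30736 to 40244 TPM in WT, 35935 to 39130 TPM in KO).

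Under LPS, Rheb was again lower in the KO group, by a smaller amount that did not pass the test across all genes. WT LPS replicates 1 to 4 stood at 31.8, 32.5, 33.6 and 25.1 TPM, and KO LPS replicates 1 to 4 at 25.5, 22.9, 23.1 and 19.5 TPM. The groups overlapped, because WT LPS replicate 4 (25.1 TPM) lay just below KO LPS replicate 1 (25.5 TPM). The means were 30.8 ± 3.83 TPM in WT and 22.7 ± 2.43 TPM in KO (SD, n = 4 each), and the KO mean was 73.9% of the WT mean. The log2 difference was -0.42 (SE 0.107, 95% interval -0.65 to -0.19), with an adjusted p of 0.11 by limma, and none of the 8 genes was called, where 0.497% of all tested genes were. Without adjustment p was 0.00186, and with median-of-ratios scaling or quantile normalisation the difference was -0.51 (adjusted p 0.0407 by limma) and -0.46 (0.0454). No other setting called it, and the adjusted p by limma reached 0.317 with only the compared groups in the fit. An exact two-sided permutation test within LPS gave p = 0.0571 (adjusted to 0.107 over the 15 single-value tests), where 0.0286 was the smallest possible. Gm23935 took 15.4% of all TPM in WT LPS replicate 4 against at most 7.34% in the other libraries, and without that library the difference was -0.51 (adjusted p 0.0591 by limma). The summed microglial markers were also lower in KO LPS (18761 to 25141 TPM) than in WT LPS libraries (25444 to 29164 TPM), with Tmem119 and Fcrls called lower of the 10, and their part in the Rheb difference was not tested.

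Averaged over both treatments, KO libraries held less Rheb, with a log2 difference of -0.60 (SE 0.082, 95% interval -0.78 to -0.42) and an adjusted p of 0.00315 by limma. This corresponds to 65.9% of the WT level on the TPM + 1 scale, with an interval of 58.3% to 74.5%. Rheb was the only one of the 8 genes called in this average, where 3.94% of all tested genes were called, 3.03% higher and 0.913% lower, and it ranked 31 of 18724 by p. Over all genes, 567 were called higher and 171 lower, and with median-of-ratios scaling 360 and 285. In an exact two-sided permutation test with labels permuted within treatment, Rheb differed by -0.63 on the log2 scale (p = 0.00286, adjusted to 0.0143 over the 15 single-value tests). The call in the average held under every other setting and with each library left out, at adjusted p values of 0.000653 to 0.0175 by limma.

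**Figure D1:**
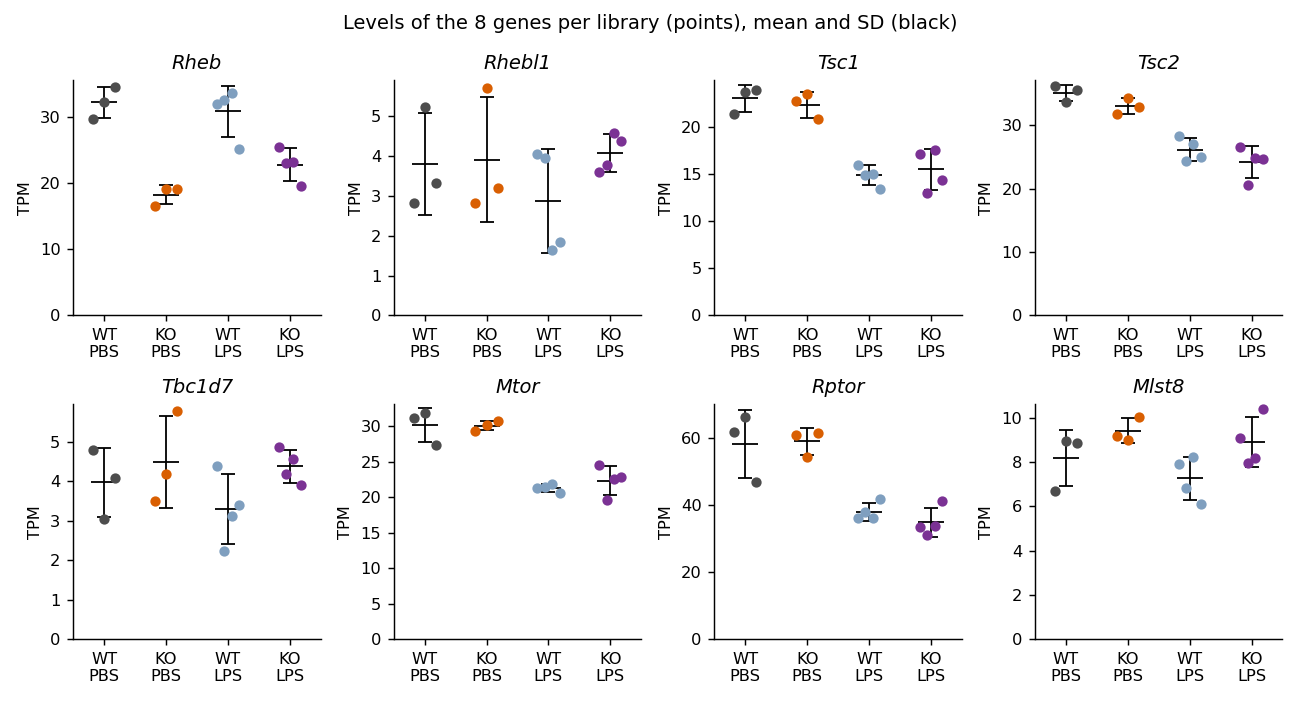
TPM of the 8 genes in each of the 14 libraries (vertical axes, TPM from 0; points are libraries, bars the group mean and SD; groups are WT and KO under PBS and LPS). Rheb points of KO PBS libraries (16.6 to 19.1 TPM) sit below all WT points (25.1 to 34.5 TPM), whereas Tsc1, Tsc2, Mtor and Rptor separate by treatment and not by genotype.

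The order of Rheb levels was WT PBS (32.1 TPM), WT LPS (30.8 TPM), KO LPS (22.7 TPM) and KO PBS (18.2 TPM). Neighbours in this order were not called different, with adjusted p values by limma of 0.673 for WT LPS against WT PBS, 0.11 for KO LPS against WT LPS and 0.0591 for KO LPS against KO PBS. All 4 KO LPS libraries (19.5 to 25.5 TPM) lay above all 3 KO PBS libraries (16.6 to 19.1 TPM), as they did in 9.52% of all tested genes. The genotype by treatment interaction of Rheb was 0.37 (95% interval 0.01 to 0.72, adjusted p 0.516 by limma, unadjusted 0.0426), so the smaller KO difference under LPS was not shown to differ from that under PBS. No gene of 18724 was called for the interaction (0.00% of all tested), and 1780 had an unadjusted p under 0.05. With voom on the recovered reads the interaction count was also 0, with 2289 at an unadjusted p under 0.05.

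The Rheb value counts all exons of the gene, and its meaning for the deleted allele is limited. The coding transcript of Rheb is 1784 bases long, and 3 further annotated transcripts are retained introns of 522, 2606 and 4046 bases, so that the exon length behind the TPM is 7721 bases. The table does not separate reads of the floxed exons from reads of the remaining exons, so undeleted cells and RNA from the recombined allele cannot be told apart. RNA of other cells, such as that of the neutrophil and choroid plexus markers, was also in these libraries. Its part in the remaining Rheb level was not tested. Tmem119, whose gene drives Cre, fell in the KO groups too, from 3467 ± 482 to 2114 ± 97.2 TPM under PBS (SD, n = 3 each; adjusted p 0.0389 by limma) and from 1733 ± 117 to 844 ± 116 TPM under LPS (SD, n = 4 each; adjusted p 0.00857). Because Cre was present in the KO groups alone, an effect of Cre, or of the changed Tmem119 locus, cannot be told apart from that of Rheb loss.

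A ratio within a library does not depend on how that library was scaled, so Rheb was also set against Mtor. The value of the ratio depends on the exon lengths of both genes, but its log2 difference between KO and WT does not. The Rheb to Mtor ratio of TPM was 0.954, 1.01 and 1.26 in WT904, WT913 and WT914 and 0.564, 0.630 and 0.621 in KO911, KO912 and KO915. Under LPS it was 1.49, 1.52, 1.54 and 1.22 in WT replicates 1 to 4 and 1.04, 1.17, 1.03 and 0.858 in KO replicates 1 to 4. No KO library reached a WT library of the same treatment, including WT LPS replicate 4. The means were 1.08 ± 0.162 and 0.605 ± 0.0359 under PBS (SD, n = 3 each) and 1.44 ± 0.147 and 1.02 ± 0.127 under LPS (SD, n = 4 each). The difference over both treatments was -0.66 on the log2 scale, with an exact two-sided permutation p of 0.00143, the smallest this design can give, adjusted to 0.0107 over 15 tests. Within LPS alone p was 0.0286 (adjusted 0.0714), and within PBS 0.1 (adjusted 0.107), in the same exact permutation test.

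Rhebl1, the paralog examined for compensation, was present at low levels and was not called in any KO comparison. It stood at 2.83, 5.24 and 3.32 TPM in WT904, WT913 and WT914 and at 2.84, 5.71 and 3.196 TPM in KO911, KO912 and KO915. The groups overlapped almost fully, and the KO to WT difference was 0.02 on the log2(TPM + 1) scale (95% interval -0.64 to 0.69, adjusted p 0.986 by limma). Its sign turned under some settings. Under LPS, Rhebl1 stood at 4.06, 3.96, 1.65 and 1.85 TPM in WT replicates 1 to 4 and at 3.59, 3.77, 4.58 and 4.38 TPM in KO replicates 1 to 4. The WT replicates split into a higher and a lower pair, and KO values lay either between these pairs or above the higher pair. The difference was 0.45 (95% interval -0.13 to 1.02, adjusted p 0.557 by limma), and averaged over both treatments it was 0.24 (95% interval -0.20 to 0.68, adjusted p 0.632). The 95% interval of the average spans 86.8% to 160% of the WT level on the TPM + 1 scale, and the values rest on 32 to 120 recovered reads per library.

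Set against Rheb, Rhebl1 made up a larger share in KO libraries. The percent itself depends on the exon lengths behind the TPM, 3035 bases for Rhebl1 and 7721 bases for Rheb. Its log2 difference between KO and WT does not. Rhebl1 stood at 9.52%, 16.3% and 9.62% of the Rheb level in WT904, WT913 and WT914 and at 17.1%, 30.0% and 16.8% in KO911, KO912 and KO915. Under LPS it stood at 12.7%, 12.2%, 4.90% and 7.35% in WT replicates 1 to 4 and at 14.1%, 16.5%, 19.8% and 22.4% in KO replicates 1 to 4. Groups did not overlap in either treatment. The group means were 11.8 ± 3.87% and 21.3 ± 7.54% under PBS (SD, n = 3 each) and 9.29 ± 3.80% and 18.2 ± 3.66% under LPS (SD, n = 4 each). The difference over both treatments was 0.95 on the log2 scale (exact two-sided permutation p = 0.00143, adjusted to 0.0107 over 15 tests), and without the pituitary-rich libraries WT914 and KO LPS replicate 3 it was 0.86 (adjusted p 0.0643). In the same exact permutation test p was 0.1 within PBS (adjusted 0.107) and 0.0286 within LPS (adjusted 0.0714), each the smallest possible there. Since the denominator is Rheb itself, the share rises with its fall.

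The sum of both paralogs stayed below WT in the KO groups. It depends on the exon lengths by which the reads were divided, 7721 bases for Rheb and 3035 bases for Rhebl1. Summed Rheb and Rhebl1 levels were 35.9 ± 2.96 TPM in WT PBS and 22.1 ± 2.67 TPM in KO PBS (SD, n = 3 each), and 33.7 ± 4.48 TPM in WT LPS and 26.8 ± 2.17 TPM in KO LPS (SD, n = 4 each). The sums did not overlap under PBS, where WT libraries held 32.5 to 37.8 TPM and KO libraries 19.4 to 24.7 TPM. Under LPS they overlapped through WT LPS replicate 4, at 27.0 TPM, against 23.9 to 29.0 TPM in KO. The difference over both treatments was -0.51 on the log2 scale (exact two-sided permutation p = 0.00429, adjusted to 0.0161 over 15 tests). Within PBS alone p was 0.1 and within LPS alone 0.0857 in the same exact permutation test, both adjusted to 0.107.

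**Figure D2:**
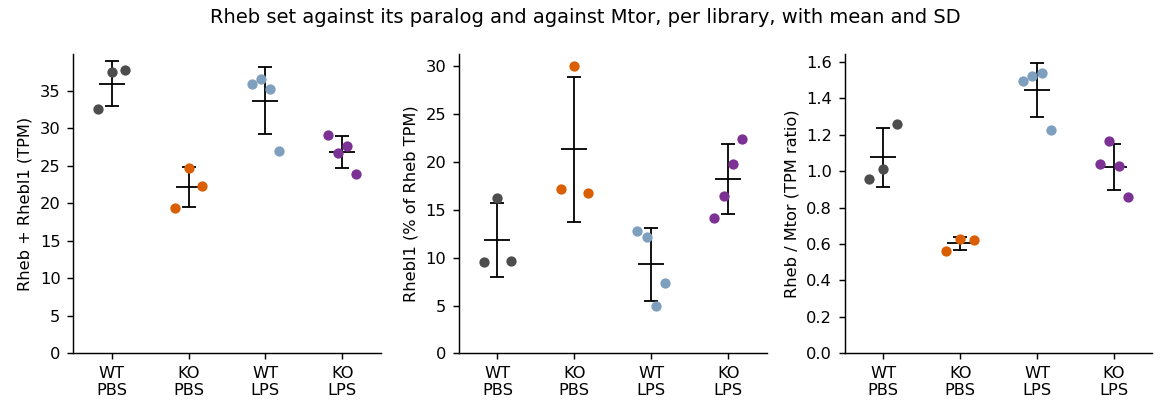
The sum of Rheb and Rhebl1 in TPM, Rhebl1 as a percent of Rheb TPM, and the ratio of Rheb to Mtor TPM, per library (points) with group mean and SD. KO libraries lie above WT libraries of the same treatment in the percent and below them in the Rheb to Mtor ratio without overlap, and in the sum they overlap under LPS.

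None of the 3 TSC complex genes was called in a KO comparison. Tsc1 stood at 21.4, 23.7 and 24.0 TPM in WT904, WT913 and WT914 and at 22.7, 23.5 and 20.8 TPM in KO911, KO912 and KO915. Under LPS it stood at 16.0, 14.9, 15.04 and 13.4 TPM in WT replicates 1 to 4 and at 17.1, 13.0, 17.6 and 14.3 TPM in KO replicates 1 to 4. Genotypes were interleaved in both treatments, and the average difference was 0.01 (95% interval -0.17 to 0.18, adjusted p 0.984 by limma), a value so close to 0 that its sign turned with the scaling.

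Tsc2, the catalytic subunit, stood at 36.1, 33.7 and 35.5 TPM in WT904, WT913 and WT914 and at 31.7, 34.3 and 32.9 TPM in KO911, KO912 and KO915. It stood at 28.3, 24.3, 27.0 and 24.9 TPM in WT LPS replicates 1 to 4 and at 26.6, 20.6, 24.8 and 24.7 TPM in KO LPS replicates 1 to 4. The groups overlapped in each treatment, with an average difference of -0.10 (95% interval -0.24 to 0.04, adjusted p 0.488 by limma). Tsc2 overlaps Pkd1 on the opposite strand, with 693 identical bases shared by their transcripts. Pkd1 stood at 24.7 to 60.7 TPM and was not called in a KO comparison, and since the labels do not state strand, reads of the shared stretch cannot be assigned.

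Tbc1d7, the lowest of the TSC complex genes by TPM, ranged from 3.06 to 4.79 TPM in WT PBS, from 3.498 to 5.78 TPM in KO PBS, from 2.25 to 4.39 TPM in WT LPS and from 3.91 to 4.85 TPM in KO LPS. The groups overlapped in both treatments, and the average difference was 0.24 (95% interval -0.08 to 0.56, adjusted p 0.463 by limma) on 38 to 173 reads per library. The ratio of Tsc1 to Tsc2 was 0.657 ± 0.0573 in WT PBS, 0.678 ± 0.0427 in KO PBS (SD, n = 3 each), 0.568 ± 0.0326 in WT LPS and 0.640 ± 0.0524 in KO LPS (SD, n = 4 each). Its difference over both treatments was 0.11 on the log2 scale, which did not pass the exact permutation test (p = 0.0829, adjusted to 0.107).

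The mTORC1 core genes were not called in any KO comparison either. Mtor, the kinase, stood at 31.1, 31.8 and 27.4 TPM in WT904, WT913 and WT914 and at 29.4, 30.2 and 30.7 TPM in KO911, KO912 and KO915. Under LPS it stood at 21.3, 21.4, 21.9 and 20.5 TPM in WT replicates 1 to 4 and at 24.5, 19.7, 22.5 and 22.8 TPM in KO replicates 1 to 4. KO and WT overlapped in both treatments, and the average difference was 0.03 (95% interval -0.10 to 0.16, adjusted p 0.860 by limma), so a KO level between 93.4% and 112% of WT is compatible with these libraries on the TPM + 1 scale.

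Rptor, the scaffold that presents substrates to the kinase, was the highest of the 8 by TPM. It stood at 61.7, 66.2 and 47.0 TPM in WT904, WT913 and WT914 and at 61.0, 54.5 and 61.6 TPM in KO911, KO912 and KO915. It stood at 36.1, 38.2, 36.1 and 41.8 TPM in WT LPS replicates 1 to 4 and at 33.5, 31.2, 33.8 and 41.2 TPM in KO LPS replicates 1 to 4. The lowest WT PBS value, 47.0 TPM, was that of the pituitary-rich library WT914, and the groups overlapped with an average difference of -0.05 (95% interval -0.23 to 0.14, adjusted p 0.855 by limma).

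Mlst8, the subunit that binds the kinase domain, had the second smallest p of the 8 in the average comparison without passing the test. It stood at 6.70, 8.94 and 8.86 TPM in WT904, WT913 and WT914 and at 9.15, 9.01 and 10.05 TPM in KO911, KO912 and KO915. Under LPS it stood at 7.89, 6.83, 8.22 and 6.11 TPM in WT replicates 1 to 4 and at 9.07, 7.97, 8.16 and 10.4 TPM in KO replicates 1 to 4. All KO PBS values lay above all WT PBS values, as they did in 14.9% of all tested genes, and the LPS groups overlapped. The average difference was 0.23 (95% interval 0.004 to 0.45), with an unadjusted p of 0.0462 and an adjusted p of 0.287 by limma, on 111 to 341 reads per library.

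**Figure D3:**
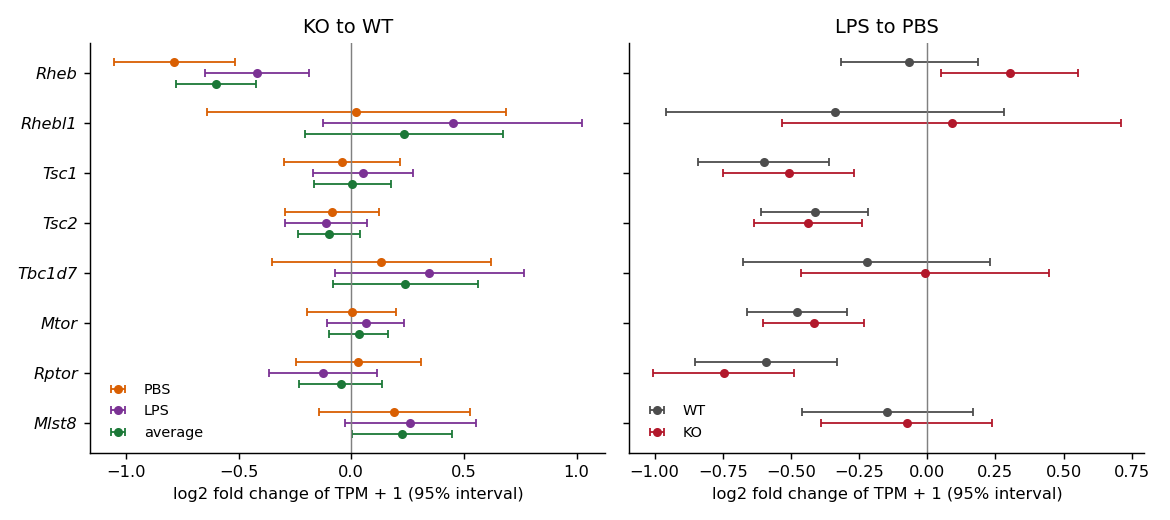
Log2 fold changes of TPM + 1 with 95% intervals for the 8 genes, KO to WT under PBS, under LPS and averaged, and LPS to PBS in WT and in KO (horizontal axes, log2 fold change; points are estimates, bars the intervals, colours the comparisons). In the KO to WT panel Rheb lies at -0.79 under PBS and -0.60 in the average, and in the LPS to PBS panel Tsc1, Tsc2, Mtor and Rptor lie between -0.41 and -0.75.

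Between LPS and PBS libraries, 4 of the 8 genes differed in the deposited values. Tsc1, Tsc2, Mtor and Rptor were lower in LPS than in PBS libraries without overlap in either genotype, as were 22% of all tested genes, and all 4 were called lower in both genotypes, as were 20.6% of all tested genes. In WT the log2 differences were -0.60 for Tsc1 (adjusted p 0.00135 by limma), -0.41 for Tsc2 (0.00353), -0.48 for Mtor (0.00107) and -0.59 for Rptor (0.00226). In KO they were -0.51 for Tsc1 (0.00375), -0.44 for Tsc2 (0.00267), -0.42 for Mtor (0.00245) and -0.75 for Rptor (0.000523), by limma. Called genes made up 42.0% of those tested in WT (34.1% called lower) and 34.7% in KO (26.9% called lower), so that such calls were common among all genes as well.

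Lower levels in LPS libraries were also common among all genes on the deposited scale. The median gene stood at -0.28 in WT and at -0.22 in KO on the log2 scale. Median-of-ratios scaling brought these medians to 0.01 and 0.00, which it does by design, so that these medians test nothing. With that scaling, Tsc1 was the only one of the 8 called in WT (-0.28, adjusted p 0.0394 by limma), and in KO Rptor was called lower (-0.49, 0.0114) and Rheb higher (0.55, 0.00351). Mtor was then at -0.15 in WT and -0.16 in KO (adjusted p 0.115 and 0.116 by limma) and Tsc2 at -0.08 and -0.18 (0.439 and 0.114), which did not pass. Other settings kept more of these calls. With Gm23935 removed, 4 of the 8 genes were called lower in each genotype. With quantile normalisation 3 were called lower in WT and 4 in KO, and with voom 4 in WT and 3 in KO. Over all genes the deposited scale gave 1488 higher and 6378 lower calls in WT and 1465 and 5029 in KO, and median-of-ratios scaling gave 3022 and 2471 in WT and 2331 and 1921 in KO.

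Rheb did not follow these genes. In WT its LPS level was 95.8% of its PBS level, a difference of -0.07 (adjusted p 0.673 by limma) that turned positive with Gm23935 removed (0.04), with voom on recovered reads (0.10), with quantile normalisation (0.16), with median-of-ratios scaling (0.26) and without WT LPS replicate 4 (0.03). In KO its LPS level was 125% of its PBS level, a difference of 0.30 (adjusted p 0.0591 by limma). Rhebl1, Tbc1d7 and Mlst8 overlapped between LPS and PBS libraries in both genotypes, and their LPS means were 75.9%, 82.7% and 88.9% of the PBS means in WT and 104%, 97.7% and 94.7% in KO. Sex, Gm23935 and treatment all differ between these libraries, and cannot be told apart here.

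By mean TPM over all 14 libraries, the 8 genes ranked Rptor (46.0), Tsc2 (29.0), Rheb (26.1), Mtor (25.4), Tsc1 (18.4), Mlst8 (8.38), Tbc1d7 (4.004) and Rhebl1 (3.64), per exon length. That length takes in retained introns to a different extent in each gene. It is 7721 bases for Rheb, with a coding transcript of 1784, and 10109 for Mtor, with a coding transcript of 8564. This order therefore depends on the lengths and may not be that of coding transcripts. Across the libraries, Tsc1, Tsc2, Mtor and Rptor moved together, with Pearson's r between pairs of 0.796 to 0.931, as a description over 14 libraries that share the treatment split. With group means removed, r was 0.658 for Tsc1 and Tsc2, 0.635 for Tsc2 and Mtor and 0.511 for Mtor and Rptor. It was 0.452 for Tsc1 and Mtor, -0.0628 for Tsc2 and Rptor and -0.288 for Tsc1 and Rptor. Rheb had r of -0.198 with Mtor and -0.180 with Rhebl1 over the 14 libraries, and both signs turned with group means removed (0.153 and 0.255). The strongest pairs of Rheb with group means removed were those with Rptor (r -0.661) and Tsc1 (0.524). Over the 14 libraries these 2 pairs had r of -0.21 and -0.086.

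Other genes of the pathway were taken from 7 lists: lipid modification and carriage of Rheb, its partners outside mTORC1, inputs to the TSC complex, the lysosomal amino acid branch, inhibitors and assembly factors of mTORC1, mTORC2 subunits, and mTORC1 substrates with S6. The lists hold 96 genes, of which 94 were tested. None was called in KO to WT under PBS, where 19 had an unadjusted p under 0.05 by limma, as had 2935 of all 18724 tested genes. None was called under LPS either, where 15 had an unadjusted p under 0.05, as had 2183 of all 18724. Some other settings did call list genes. Under PBS, library weights called 6 higher and 5 lower, quantile normalisation called Bnip3, Castor2 and Eif4ebp3, and the fit with Gm23935 removed called G3bp1. Castor2 alone was called under PBS with voom on recovered reads, with a pseudocount of 5 and with only the compared groups in the fit. Under LPS, voom called Prr5l, Rps6 and Ulk2, and several other settings called some of these genes. In the average, 3 of 94 were called higher and 4 lower, which is 7 of 94 where 3.94% of all tested genes were called, and the median log2 difference over the lists was 0.01, against 0.02 over all genes. The split was 1 higher and 7 lower with median-of-ratios scaling, 5 and 3 with mitochondrial, ribosomal protein and haemoglobin genes removed, 6 and 7 with library weights, and 1 and 4 without WT914 and KO LPS replicate 3. The count fell to 2, namely Prr5l and Rps6, without KO911 or KO912, and to 3 or 4 without KO915, WT904, WT913, WT914 or KO LPS replicate 3.

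Of the 18 mTORC1 substrates with S6, 1 was called higher in the average, where 3.03% of all tested genes were called higher. Rps6, the ribosomal protein that S6 kinase phosphorylates, stood at 672 ± 17.4 TPM in WT PBS and 1005 ± 86.6 TPM in KO PBS (SD, n = 3 each), and at 794 ± 132 TPM in WT LPS and 1253 ± 205 TPM in KO LPS (SD, n = 4 each). KO libraries lay above WT libraries in both treatments, and under PBS 14.9% of all tested genes did so too. The average difference was 0.62 (95% interval 0.39 to 0.84, adjusted p 0.00659 by limma). Ribosomal protein genes have many pseudogenes with which reads can be shared, so this value is uncertain.

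Of the 4 mTORC2 subunits, 1 was called lower in the average, where 0.913% of all tested genes were called lower. Prr5l, a partner of Rictor in mTORC2, stood at 10.5 ± 2.72 TPM in WT PBS and 6.17 ± 1.37 TPM in KO PBS (SD, n = 3 each), and at 23.5 ± 3.32 TPM in WT LPS and 12.2 ± 2.78 TPM in KO LPS (SD, n = 4 each). Its groups overlapped slightly under PBS and not under LPS, and the average difference was -0.79 (95% interval -1.11 to -0.47, adjusted p 0.0107 by limma).

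In the lysosomal amino acid branch, 2 of 30 tested genes were called lower and 0 higher, where 0.913% of all tested genes were called lower. The median difference over the 30 genes was -0.02, against 0.02 over all genes. Castor2, of the arginine-sensing CASTOR family, stood at 21.3 ± 1.43 TPM in WT PBS and 10.8 ± 0.830 TPM in KO PBS (SD, n = 3 each), and at 8.28 ± 0.697 and 6.33 ± 2.41 TPM under LPS (SD, n = 4 each). Its average difference was -0.66 (adjusted p 0.0242 by limma). Sesn1, of the leucine-sensing sestrin family, stood at 177 ± 25.7 and 118 ± 6.33 TPM under PBS (SD, n = 3 each) and at 75.2 ± 15.5 and 55.8 ± 11.3 TPM under LPS (SD, n = 4 each). The groups of both genes were apart under PBS, with KO lower, as were those of 10.9% of all tested genes, and overlapped under LPS. For Sesn1 the average difference was -0.50 (adjusted p 0.0422 by limma). Of 28 other settings, Castor2 was called in 21 and Sesn1 in 15. The Castor2 call was lost without any PBS library and without WT LPS replicate 1, and the Sesn1 call without any PBS library other than WT914 and without KO LPS replicate 1 or 3 or WT LPS replicate 1 or 2. The Sesn1 call was also lost with no filter, with no intensity trend and with mitochondrial, ribosomal protein and haemoglobin genes removed. It was lost as well when WT914 and KO LPS replicate 3 were left out together.

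Among 11 partners of Rheb outside mTORC1, Cad was called higher and Bnip3 lower in the average. Of all tested genes, 3.03% were called higher and 0.913% lower. Cad, the enzyme that begins pyrimidine synthesis, ranged under PBS from 20.4 to 25.02 TPM (WT libraries) and from 30.1 to 32.0 TPM (KO libraries) and stood at 12.7 ± 1.496 and 15.2 ± 1.51 TPM under LPS (SD, n = 4 each), with an average difference of 0.36 (adjusted p 0.0250 by limma). Bnip3, a mitochondrial protein that binds Rheb, stood at 44.0 ± 1.15 and 26.0 ± 4.75 TPM under PBS (SD, n = 3 each) and at 41.1 ± 8.63 and 31.1 ± 6.37 TPM under LPS (SD, n = 4 each), with an average difference of -0.57 (adjusted p 0.0259 by limma). Both were apart under PBS and overlapped under LPS. Under PBS, 14.9% of all tested genes lay apart with KO higher, as Cad did, and 10.9% with KO lower, as Bnip3 did. The Bnip3 call was kept in 23 of 28 other settings and was lost when any PBS library other than KO915 was left out. The Cad call was kept in 20 of 28 and was lost with median-of-ratios scaling and without any PBS library other than WT913, or without KO LPS replicate 3. It was also lost when WT914 and KO LPS replicate 3 were left out together.

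Of 21 tested inputs to the TSC complex, only G3bp1, which tethers the complex to lysosomes, was called higher in the average. Of all tested genes, 3.03% were called higher. It stood at 68.4 ± 4.29 and 86.1 ± 5.04 TPM in WT and KO under PBS (SD, n = 3 each) and at 73.8 ± 6.20 and 80.2 ± 3.15 TPM under LPS (SD, n = 4 each). Its average difference was 0.22 (adjusted p 0.0372 by limma), and the call was kept in 14 of 28 other settings. It was lost with median-of-ratios scaling, with no intensity trend and when any library other than WT904, WT LPS replicate 3 or KO LPS replicate 4 was left out. Leaving out WT914 and KO LPS replicate 3 together also lost it. The 2 remaining lists had no called gene, and their members of at least 5 TPM with the largest differences were Fntb, a farnesyltransferase subunit (-0.20, adjusted p 0.518 by limma), and Telo2, which assists mTOR assembly (0.32, adjusted p 0.0694). Telo2 was called in 5 of 28 other settings, namely a filter at a TPM of 5, library weights, haemoglobin, mitochondrial and ribosomal protein genes left out, voom, and without WT LPS replicate 3.

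**Figure D4:**
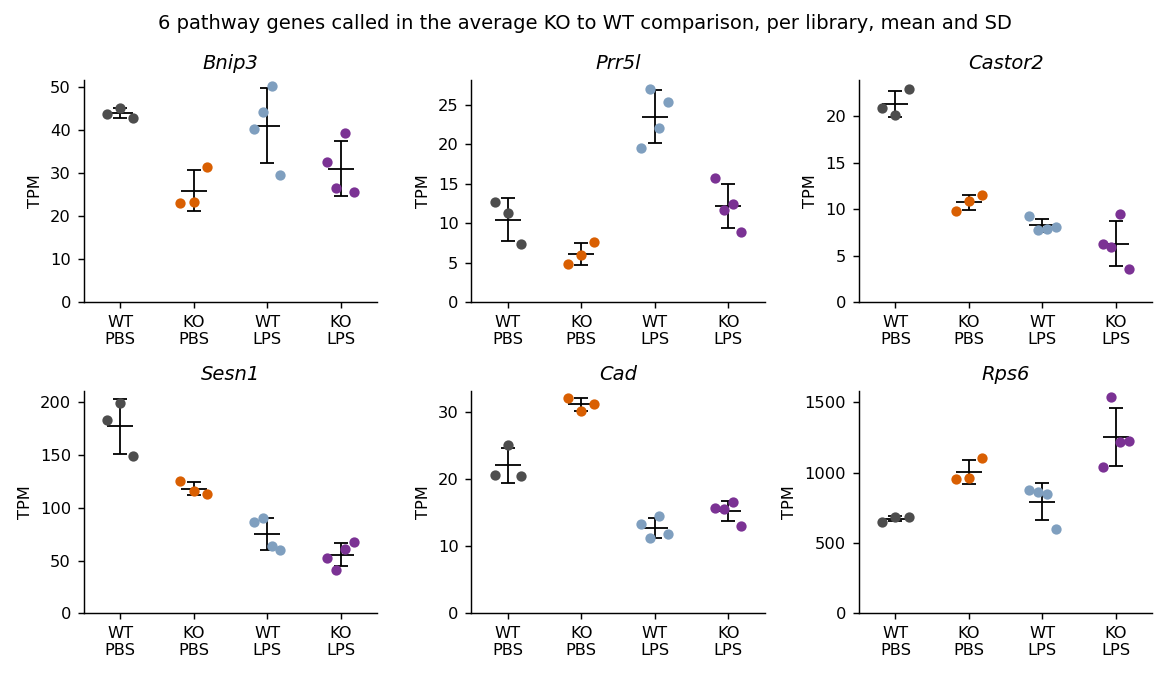
TPM per library (points) with group mean and SD for Rps6, Prr5l, Castor2, Sesn1, Cad and Bnip3, which were called in the average KO to WT comparison. KO libraries lie above WT libraries in both treatments for Rps6, and for Castor2, Sesn1, Cad and Bnip3 the genotypes are apart under PBS and overlap under LPS. Under PBS, 14.9% of all tested genes are apart with KO higher and 10.9% with KO lower.

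The genes whose levels were most like those of Rheb over the 14 libraries, of 12222 compared, were Oaf (Pearson's r 0.903), Bnip3 (0.898), Ptgfrn (0.889), Lgi4 (0.885) and Tmem71 (0.877), on log2(TPM + 1). All 5 were lower on average in KO than in WT in both treatments, which their choice by likeness to Rheb in the same libraries largely fixes, so the values that follow are a description. Ptgfrn stood at 25.3 ± 3.67 and 12.8 ± 1.36 TPM in WT and KO under PBS (SD, n = 3 each) and at 31.2 ± 2.47 and 16.1 ± 3.12 TPM under LPS (SD, n = 4 each), with log2 differences of -0.93 in each. Oaf was at -0.49 under PBS and -0.58 under LPS. For Mtor, the most alike were Anapc1 (r 0.989), Ambra1 (0.985), Usp19 (0.982), Camsap1 (0.978) and Cabin1 (0.976), which share with Mtor the split by treatment.

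Some genes lie within or beside the members. Angptl7, which encodes a secreted angiopoietin-like protein, lies within Mtor on the opposite strand and was lower in KO libraries. It stood at 25.4, 19.0 and 10.9 TPM in WT904, WT913 and WT914 and at 5.23, 2.89 and 6.25 TPM in KO911, KO912 and KO915. Under LPS it stood at 14.5, 11.04, 8.54 and 9.32 TPM in WT replicates 1 to 4 and at 4.78, 3.85, 4.04 and 5.59 TPM in KO replicates 1 to 4. No KO library reached a WT library in either treatment, and under PBS 10.9% of all tested genes lay apart in this direction. The difference was called under PBS (-1.72, adjusted p 0.0247 by limma) and in the average (-1.40, 0.00322) and was -1.07 under LPS (0.0920). The average call was kept in 28 of 28 other settings and the PBS call in 16 of 21. The PBS call was lost without KO911, KO912, WT904 or WT913 and with only the compared groups in the fit. Mtor itself was not called.

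The summed endothelial and mural markers, all 7 of which were tested, stood at 1202 to 2216 TPM in WT PBS, 796 to 1430 TPM in KO PBS, 822 to 2072 TPM in WT LPS and 572 to 1546 TPM in KO LPS libraries, and their part in the Angptl7 difference was not tested. Of the genes next to Rheb, Crygn ranged from 0.518 to 44.2 TPM and Prkag2 from 9.36 to 15.9 TPM. Neither was called in a KO comparison, with average differences of -0.32 (adjusted p 0.786 by limma) for Crygn and 0.18 (0.387) for Prkag2. Rptoros, antisense to Rptor, stood at 1.13 to 3.98 TPM. Dhh, which overlaps Rhebl1 on the same strand, had a mean of 0.266 TPM and was not tested, and Bricd5, which overlaps Mlst8, was at 0 in all libraries.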

How the data were processed

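Reads were processed with FastQC 0.11.9, cutadapt 4.4 and STAR 2.7.10b and counted with featureCounts 2.0.1, per the submitters' processing notes. Those notes give the human build hg38, but the IDs belong to mouse genes, so no genome coordinates are printed. The authors deposited TPM per gene, which sums to 1000000 in each library. TPM times the exon-union length of GENCODE M21 gave whole reads (tolerance 0.02) for 98.4% to 98.6% of values, and the lengths behind the deposited values are not given in the sources used here.

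Here log2(TPM + 1) was fitted by limma 3.58.1 (R 4.3.3), using 1 mean for each of the 4 groups and variance moderation along mean level. Genes entered if 3 or more libraries reached a TPM of 1, which left 18724 for the Benjamini-Hochberg adjustment, and the threshold was 0.05. The fit was tested on simulated data. Fold changes of TPM + 1 understate the change of low genes. For Rheb, its sum with Rhebl1 and 3 ratios, exact two-sided permutation tests were run on plain log2 values within PBS, within LPS and over both.

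The rule for the members uses gene names alone, but it, the lists and the tests were chosen with earlier results of these data known. Named by rule were the 8 members, called pathway genes or else the most different gene of a list, genes overlapping a member or next to Rheb, Tmem119, and the 5 genes most correlated with Rheb and with Mtor (mean of at least 5 TPM). Other settings were pseudocounts of 0.1 and 5, no filter or a TPM of 5, other scalings, removal of gene sets, voom, other variance models, a replicate block and leaving out libraries. Marker lists of cell types that the text does not name are not reported here.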

Additional observations from a re-analysis of the deposited data

Results flagged for a closer look

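In WT LPS replicate 4, the summed TPM of Rheb and Rhebl1 was 27.0, against 35.3 to 36.5 in the other WT LPS libraries, and the ratio of Rheb to Mtor was 1.22, against 1.49 to 1.54. Both lay farther from the rest of their group than Dixon's limit for 4 libraries allows. In all, 24 groups of values were examined in this way, and chance marks about 1 in 20. In this library Gm23935 made up 15.4% of all TPM, the highest share of the 14 libraries; its part in the sum was not tested, and the ratio of Rheb to Mtor does not depend on the scaling of a library.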

How the results depend on the processing

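Rheb in the average KO comparison stayed called under all other settings (-0.52 to -0.65). Under PBS it was -0.74 and not called without WT914 and KO LPS replicate 3, with 0 members called, and leaving out single libraries gave -0.84 to -0.72 and 0 to 1 members called. Under LPS it was called with median-of-ratios scaling (-0.51) and quantile normalisation (-0.46), with 1 member called in each. Same-numbered LPS libraries did not deviate together over all genes (r -0.0862 to 0.0608). This cannot tell whether the numbers pair libraries, and the labels do not say. With a replicate block, Rheb was -0.42 (adjusted p 0.0899 by limma), 0 members were called, and over all genes 23 instead of 93 were called. In WT, LPS to PBS of Rheb was 0.042 with Gm23935 removed, 0.26 with median-of-ratios scaling, 0.16 with quantile normalisation and 0.098 with voom, and -0.12 to 0.025 with single libraries left out. In KO it was called with a filter at a TPM of 5 (0.30), Gm23935 removed (0.39), library weights (0.33) and median-of-ratios scaling (0.55). It was also called with mitochondrial, ribosomal protein and haemoglobin genes removed (0.35), quantile normalisation (0.50) and voom (0.55). Single libraries left out gave 0.24 to 0.37, and of these fits only that without KO LPS replicate 4 called it (0.37, adjusted p 0.0267 by limma). Median-of-ratios scaling left 1 member called for LPS to PBS in WT and 2 in KO. Rhebl1 as a percent of Rheb over both treatments was 0.86 (adjusted p 0.0643) without WT914 and KO LPS replicate 3. The causes were not tested.

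Differences near 0 changed sign, none of them called. KO to WT under PBS, Rhebl1 was -0.070 with library weights, -0.013 with pituitary markers removed, -0.031 with voom and -0.038 without both pituitary-rich libraries. Mtor was -0.040, -0.042, -0.038 and -0.063 in these settings, -0.016 with median-of-ratios scaling and -0.010 with quantile normalisation, and Rptor was -0.074, -0.013, -0.0083 and -0.11 in these settings and -0.0066 with quantile normalisation. Under LPS, Tsc1 was -0.035 with median-of-ratios scaling, -0.019 with quantile normalisation and -0.0088 without both pituitary-rich libraries, and Mtor was -0.024 and -0.0012 with these scalings. In the average, Tsc1 was -0.0018 with Gm23935 removed, -0.047 with median-of-ratios scaling, -0.011 with pituitary markers removed, -0.028 with quantile normalisation, -0.0082 with voom and -0.010 without both libraries, and Mtor was -0.020 with median-of-ratios scaling, -0.0058 with quantile normalisation and -0.0021 without both libraries. With single libraries left out, under PBS, Rhebl1 ranged from -0.22 to 0.23, Tsc1 from -0.090 to 0.0071, Tbc1d7 from -0.030 to 0.27, Mtor from -0.063 to 0.042, Rptor from -0.11 to 0.13 and the Tsc1 to Tsc2 ratio from -0.026 to 0.097. Tsc1 ranged from -0.0088 to 0.13 under LPS and from -0.025 to 0.043 in the average, and Rptor from -0.12 to 0.0012 in the average.

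Over all genes, KO to WT counts moved from 191 to between 8 (without KO911) and 999 (library weights) under PBS, from 93 to between 0 (only the compared groups in the fit) and 307 (voom) under LPS, and from 738 to between 370 (without KO912) and 1267 (library weights) in the average. For LPS to PBS in KO the count fell from 6494 to 4252 with median-of-ratios scaling, and for the interaction it was at most 3. Low read numbers limit Rhebl1 and Tbc1d7.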
